A study of Mus musculus with 24 samples.

Results

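Whole livers of mice that had received both an AKT/c-Met oncogene pair and repeated thioacetamide were compared with livers of mice that had received neither, across all genes measured. SB/AKT/c-Met + TAA and SB + saline livers numbered 4 each, 8 of the 24 livers in the series. All were from male C57BL/6JAusb mice that were 14 to 15 weeks old at plasmid injection, each liver from a different animal. All mice of both groups received a hydrodynamic tail vein injection, in which a large volume of plasmid solution given quickly into the tail vein carries DNA into hepatocytes. Every mouse was given 0.8 µg of a plasmid for the Sleeping Beauty (SB) transposase, driven by a CMV promoter. SB/AKT/c-Met + TAA mice were also given 10 µg of a transposon for myristoylated AKT (myr-AKT) and 10 µg of one for human c-Met under an EF1a promoter, whereas SB + saline mice carried no oncogene. From 8 to 10 days later, SB/AKT/c-Met + TAA mice received 10 to 11 intraperitoneal injections of thioacetamide (TAA) in saline over 5 to 6 weeks, the first at 100 mg/kg and the later ones at 200 mg/kg. SB + saline mice received the same volume of saline. The question was the summed change of an oncogene-bearing, chronically injured liver over the baseline liver. The transposon enters only some hepatocytes, and the RNA came from bulk tissue, in which tumor and surrounding liver were not separated. In bulk tissue, fewer cells of a type and less RNA per cell cannot be told apart.

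AKT is a kinase that carries the signal of insulin and growth factors towards lipid synthesis, glucose use and cell survival, and the myristoyl group holds it at the membrane, where it is constantly active. c-Met is the receptor for hepatocyte growth factor. TAA is converted by cytochrome P450 enzymes, mainly CYP2E1, into reactive oxides that kill hepatocytes around the central vein, and repeated doses lead to regeneration and scarring. Hepatocytes near the central vein (perivenous) and near the portal tract (periportal) hold different enzymes. In rodents, the male or female pattern of growth hormone release also sets which of many liver genes are on.

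RNA was counted as unique molecules at the 3′ end of transcripts. Total counts were 2571404 to 3244732 per SB/AKT/c-Met + TAA liver and 2152510 to 3060239 per SB + saline liver. Levels are given below as counts per 1000000 (CPM), scaled by trimmed mean of M-values (TMM), and changes as log2 fold changes ± SE with Benjamini-Hochberg adjusted p from edgeR's quasi-likelihood test over 19381 genes. More genes had a count in the SB/AKT/c-Met + TAA livers (17552 ± 365) than in the SB + saline livers (16081 ± 427; SD, n = 4 each), although total counts overlapped. The share of alignment records assigned to genes was 21.01 ± 1.16% and 16.1 ± 0.534%, and the TMM factor was 1.04 ± 0.0478 and 0.805 ± 0.0222. The share of alignment records with low mapping quality was 46.8 ± 2.15% and 52.5 ± 0.817%, and the 10 most abundant genes held 25.5 ± 2.15% and 29.6 ± 0.817% of counts. Each of these 5 measures separated the groups without overlap (exact permutation test, two-sided, p = 0.0286, the smallest that 4 against 4 can give; adjusted over 8 measures, p = 0.0457), and their part in the gene results was not tested. The sum of 12 hepatocyte markers lay between 68310 and 97200 CPM in the SB/AKT/c-Met + TAA livers and between 114509 and 134619 CPM in the SB + saline livers, with 2 of the 12 falling, so all 8 had the RNA of liver. Skeletal muscle markers were low in all 8, at 7.39 to 10.5 CPM and 5.56 to 39.8 CPM in all, but reached 9213 CPM in SB + TAA replicate 4, a liver that enters the comparisons with TAA alone.

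The injected receptor was present in the livers labelled for it. Human MET had 0.768, 4.93, 5.83 and 10.9 CPM in the SB/AKT/c-Met + TAA livers, and no count was found in any SB + saline liver, which makes it at least 16.99-fold higher (adjusted p = 0.00446). Replicate 1 of the combination was the lowest, with 2 counts, and replicate 4 the highest, with 31. The mouse's own Met averaged 28.6 ± 3.83 CPM and 38.6 ± 6.31 CPM, and Akt1 averaged 18.8 ± 3.45 CPM and 17.4 ± 1.54 CPM, and neither passed the test (adjusted p = 0.254 and 0.896). Human NRAS, which was not injected into either group, had 0 counts in the combination and 4 in SB + saline, too few for a fold. No count for the myr-AKT transgene itself was analysed here.

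At an adjusted p under 0.05 and a change of more than 2-fold, 583 of 19381 genes (3.01%) differed. Of these, 448 were higher (2.31%) and 135 lower (0.697%) in SB/AKT/c-Met + TAA. In 433 of the 448 and 126 of the 135, no liver of one group overlapped with any of the other, against 2486 of all 19381 genes (12.8%). The calls were selected by a test of the same livers, so this separation is no independent support for them. Scaling by library size alone, without TMM, moved the median of all genes up by 0.37 on the log2 scale and made 92.9% of 1190 calls higher, against 76.8% of 583, so directions below are relative to the TMM scale. The median log2 fold change over all genes was 0.04. The count of calls fell to 388 without SB/AKT/c-Met + TAA replicate 2, and the lower calls fell to 81 without it and to 85 without replicate 3.

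Gene lists for pathways and cell types are described below by how many of their measured members passed an adjusted p of 0.05. Over all genes tested, 2.68% rose and 1.07% fell by that rule. Counts of 1 or 2 members often changed when 1 liver was left out and are given as they stood with all livers. The lists with the highest share of risers were mitosis and cytokinesis, scar-associated macrophages, MHC class II presentation and tubulins, and the list with the highest share that fell was male-biased liver genes, as the plot of gene lists shows.

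**Figure D1:**
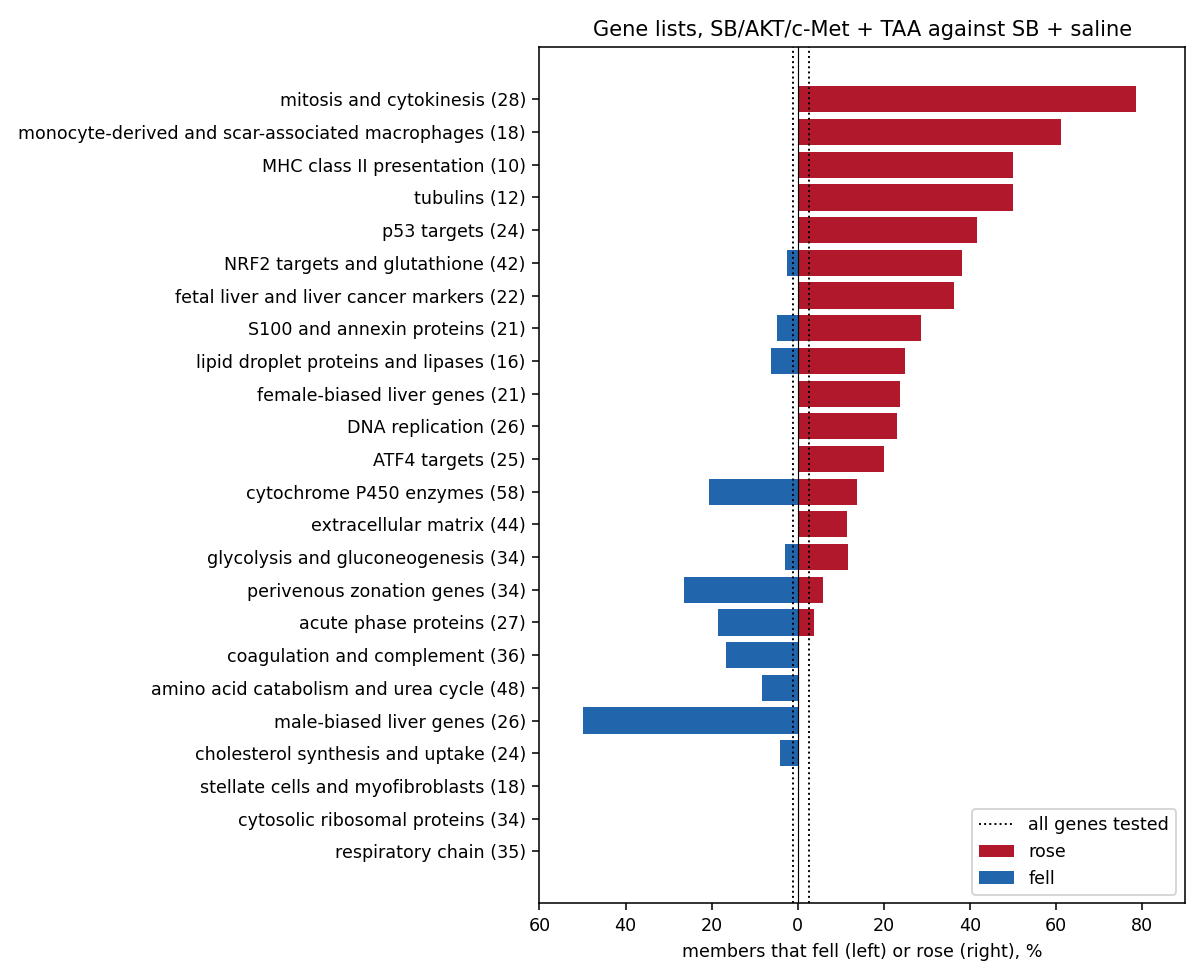
Share of each gene list whose members rose (red, right) or fell (blue, left) in SB/AKT/c-Met + TAA livers, set against SB + saline, at an adjusted p under 0.05, in percent of the members tested (number in brackets). Dotted lines mark the share over all 19381 genes, 2.68% rising and 1.07% falling. Mitosis reaches 78.6% rising and male-biased genes 50.00% falling, while stellate cell, ribosomal protein and respiratory chain lists have no bar.

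Among the 15 genes with the largest increase, 4 had no count in any SB + saline liver. Besides human MET these were Acsm4, Bmp8b and the long noncoding RNA AC152414.2. Acsm4, a mitochondrial medium-chain acyl-CoA synthetase, had 4.23, 7.39, 10.4 and 0.702 CPM in the SB/AKT/c-Met + TAA livers and was at least 17.5-fold higher (adjusted p = 0.000946). Bmp8b, a ligand of the bone morphogenetic protein family, had 3.07, 7.04, 5.52 and 5.27 CPM (at least 15.7-fold, adjusted p = 0.00101), and AC152414.2 had 9.99, 5.63, 4.29 and 0.702 CPM (at least 14.9-fold, adjusted p = 0.00173). Replicate 4 of the combination was the lowest for Acsm4 and AC152414.2 and not for Bmp8b.

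S100g, a small calcium-binding protein (ENSMUSG00000040808; GRCm38 chromosome X, 162961992 to 162964599), had 16.9, 27.8, 28.5 and 20.01 CPM in the SB/AKT/c-Met + TAA livers, against 0.428, 0.568, 0.401 and 0 CPM in the SB + saline livers. All 4 combination livers were far above all 4 SB + saline livers, which held 3 counts among them, a ratio of 70.3 (95% counting interval 23.8 to 343; adjusted p = 9.27e-06). Hmmr, a hyaluronan receptor that also sits on the mitotic spindle, had 13.4, 16.9, 20.2 and 11.9 CPM against 0, 0.568, 0 and 0.428 CPM, a ratio of 70.7 (19.3 to 588; adjusted p = 1.95e-05). Tinag, an antigen of tubular basement membrane, averaged 8.32 ± 1.81 CPM in SB/AKT/c-Met + TAA livers and 0.1002 ± 0.2005 CPM in SB + saline (adjusted p = 0.00015). Casein kappa (Csn3), a milk protein, averaged 9.196 ± 6.65 CPM and 0.107 ± 0.214 CPM (adjusted p = 0.00562). Bglap3, a member of the osteocalcin gene cluster, had 25.7, 31.3, 14.4 and 23.2 CPM in the combination, against 0.428, 1.14, 0.401 and 0.428 CPM, a log2 fold change of 5.28 ± 0.87 (adjusted p = 0.0005). The groups did not overlap in these genes, which was a condition for naming them among the largest increases. Intervals and floors of this kind cover counting error only.

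Other genes that rose are known from fetal or cancerous liver. Alpha-fetoprotein (Afp), the main plasma protein of the fetal liver, had 62.6, 50.3, 108 and 51.95 CPM in SB/AKT/c-Met + TAA, against 2.14, 1.71, 0.802 and 2.997 CPM in SB + saline (5.13 ± 0.90, adjusted p = 0.000946; 0.14 under limma-voom). Replicate 3 was the highest and the other 3 combination livers lay close together. Ly6d, a GPI-anchored surface protein, reached 272, 702, 548 and 574 CPM against 9.42, 15.9, 6.82 and 6.42 CPM (5.79 ± 0.64, adjusted p = 4.06e-06). The maternally expressed noncoding RNA H19 had 11.1, 10.9, 27.6 and 15.1 CPM, against 1 count in all SB + saline livers, a ratio of 149 (26.4 to 5918; adjusted p = 0.0317; 0.0638 under limma-voom and 0.108 with robust estimation). Its call was lost in 6 of the 8 fits that each left out 1 liver, with adjusted p of 0.0907 and 0.0502 without SB/AKT/c-Met + TAA replicates 3 and 4, and 0.0973, 0.0868, 0.0939 and 0.0975 without SB + saline replicates 1 to 4. Glypican 3 (Gpc3), a cell surface proteoglycan used as a marker of human hepatocellular carcinoma, had 89.9, 90.1, 90.5 and 47.04 CPM against 2.57, 3.41, 3.61 and 2.57 CPM (4.69 ± 0.69, adjusted p = 0.00014). Replicates 1 to 3 of the combination were nearly equal and replicate 4 was the lowest. Akr1c18, an aldo-keto reductase that inactivates progesterone, had 14.6, 49.6, 83.4 and 130.2 CPM against 0, 1.14, 0.802 and 0.428 CPM (6.85 ± 1.14, adjusted p = 0.000523; 0.0936 under limma-voom), and ranged widely among combination livers, with replicate 1 the lowest. Of the fetal liver and cancer list, 8 of 22 rose and none fell, with a median log2 fold change of 1.95, or 1.56 with genes at 0 in a group set to their bound. Under limma-voom the number that rose was 2.

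**Figure D2:**
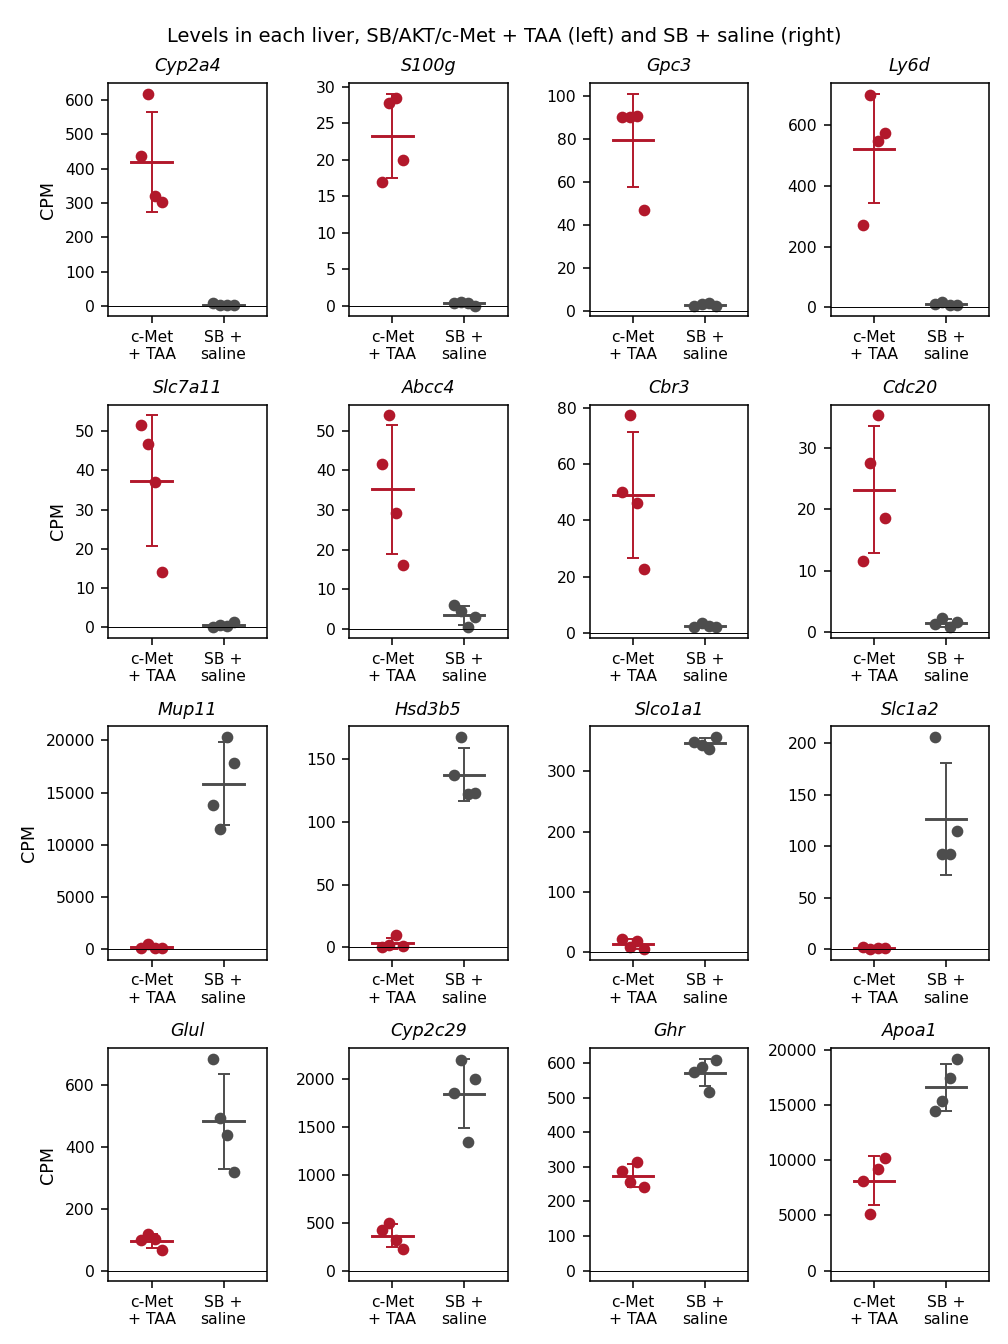
CPM in each of 4 SB/AKT/c-Met + TAA livers (red, left) and 4 SB + saline livers (grey, right) for 16 genes, with the mean (long bar) and SD (whiskers); each linear axis includes 0, marked by a thin line. In all 16 the groups do not overlap, from S100g at 16.9 to 28.5 CPM against 0 to 0.568 CPM, to Mup11 at 64.9 to 458 CPM against 11501 to 20335 CPM.

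The genes that fell furthest included many products of the mature male liver. Susd4, a regulator of complement, had 1 count in all SB/AKT/c-Met + TAA livers, against 50.5, 26.7, 19.6 and 28.7 CPM in the SB + saline livers, so that SB + saline over the combination was a ratio of 364 (95% counting interval 64.8 to 14420.4; adjusted p = 8.89e-06). Of the 15 with the largest decrease, 6 were major urinary proteins (Mup11, Mup12, Mup15, Mup16, Mup7 and Mup17), lipocalins that the male mouse liver secretes as scent carriers. A gene model on chromosome 4, Gm13775, fell too (-4.71 ± 0.57, adjusted p = 9.58e-06). Mup11 had 91.8, 458, 121 and 64.9 CPM in SB/AKT/c-Met + TAA, against 13780.4, 11501, 20335 and 17828 CPM in SB + saline (-6.43 ± 1.09, adjusted p = 0.000637). Replicate 2 was the highest of the combination, and no combination liver came near an SB + saline liver. Mup12 averaged 19.05 ± 11.6 CPM and 669 ± 162 CPM, Mup15 0.785 ± 0.1899 CPM and 21.3 ± 7.74 CPM, and Mup17 518 ± 209 CPM and 8312 ± 1716 CPM, with adjusted p of 0.00234, 0.00144 and 0.00536. Mup7 and Mup16 had log2 fold changes of -4.29 ± 1.09 and -4.55 ± 1.08 (adjusted p = 0.021 and 0.0133; 0.0898 and 0.0693 with robust estimation). The call of Mup16 was lost without SB/AKT/c-Met + TAA replicate 4 (adjusted p = 0.053), and that of Mup7 without SB/AKT/c-Met + TAA replicate 2, 3 or 4 (adjusted p = 0.0586, 0.0657 and 0.0779). Mup genes are near-identical copies, and reads that could not be placed were not counted, so levels of single members are uncertain.

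Other male-biased genes fell with them. Hsd3b5, a male-specific 3-ketosteroid reductase, had 0.384, 1.76, 9.82 and 0.702 CPM in the SB/AKT/c-Met + TAA livers, against 137, 168, 122 and 123 CPM in the SB + saline livers (-5.33 ± 1.20, adjusted p = 0.00903; 0.0549 with robust estimation). Replicate 3 was the highest of the combination and still below every SB + saline liver. Slco1a1, an organic anion transporter of the sinusoidal membrane, had 22.3, 8.44, 19.02 and 5.27 CPM against 349, 344, 337 and 357 CPM (-4.65 ± 1.03, adjusted p = 0.00831; 0.0523 with robust estimation). Serpina4-ps1, a pseudogene of the kallistatin family, had 1.54, 0.704, 1.23 and 0.702 CPM against 12.4, 11.9, 13.6 and 17.6 CPM (-3.69 ± 0.74, adjusted p = 0.0036). Moxd1 had 1 count in the combination and 88 in SB + saline, spread unevenly at 11.1, 27.9, 4.01 and 1.28 CPM. Its call (adjusted p = 0.0227; 0.0838 with robust estimation and 0.0822 under DESeq2) was lost without any 1 of the 4 SB/AKT/c-Met + TAA livers (adjusted p = 0.0584, 0.07, 0.0768 and 0.0705, replicates 1 to 4) and without SB + saline replicate 2 (0.108).

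Over the male-biased list, 13 of 26 fell, none rose and all 26 had a negative log2 fold change, with a median of -1.76. The list summed to 23078, 17403, 25205 and 14814 CPM in the SB/AKT/c-Met + TAA livers and 65417, 59768, 73080.0 and 69751 CPM in the SB + saline livers, with no overlap. Without SB/AKT/c-Met + TAA replicate 2 the number that fell was 7, and with the robust option of the quasi-likelihood fit it was 5, and with only the 8 livers in the model it was 22. Side by side against the same SB + saline livers, 15 of the list fell with TAA alone (2.51% of all genes did) and 0 with SB/AKT/c-Met + saline (0.0413%). In the 3 SB/AKT/c-Met + saline livers, however, the list summed to 42521, 32099 and 42411 CPM, below every SB + saline liver, with a median of -0.88. Set directly against the oncogenes alone, 3 of the list were lower in the combination (0.103% of all genes).

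Genes usually higher in female liver moved in part. Of 21 female-biased genes tested, 5 rose and none fell, with a median of 0.89 (0.79 with genes at 0 set to their bound). The riser with the smallest adjusted p was Cyp2a4, a testosterone 15-alpha-hydroxylase (ENSMUSG00000074254; GRCm38 chromosome 7, 26307169 to 26315088). It had 436, 619, 319 and 304 CPM in SB/AKT/c-Met + TAA, against 8.13, 2.27, 1.604 and 2.14 CPM in SB + saline, a 119-fold difference in means (6.86 ± 0.70, adjusted p = 1.69e-06). The lowest combination liver, replicate 4, stood far above the highest SB + saline liver, replicate 1. Cyp2a4 and other Cyp2a genes are near-identical, so how reads divide between them is uncertain. Cyp2b9 had 5.38, 27.4, 22.4 and 12.6 CPM against 0, 1.14, 0 and 0.856 CPM (5.11 ± 0.87, adjusted p = 0.000633). Cyp3a44 had 4.23, 11.96, 7.67 and 1.404 CPM against 1.28, 0, 0 and 0.428 CPM (3.70 ± 0.76, adjusted p = 0.00446), and Nipal1, a magnesium transporter, had 1.15, 5.28, 1.84 and 8.07 CPM against 1 count in all (36.3-fold in pooled counts, 6.21 to 1464, adjusted p = 0.00969). The growth hormone receptor, Ghr, averaged 275 ± 32.4 CPM and 572 ± 40.2 CPM (-1.06 ± 0.29, adjusted p = 0.0368; 0.0738 with robust estimation, 0.0504 under library size alone and 0.0509 with the replicate block), without overlap, but its call was lost when any 1 of the 8 livers was left out (adjusted p 0.0663, 0.0996, 0.06 and 0.108 without SB/AKT/c-Met + TAA replicates 1 to 4, and 0.071, 0.076, 0.0552 and 0.0839 without SB + saline replicates 1 to 4). Igf1, the main circulating product of growth hormone action, averaged 962 ± 118 CPM and 1272 ± 71.2 CPM and did not pass (-0.40 ± 0.22, adjusted p = 0.371).

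**Figure D3:**
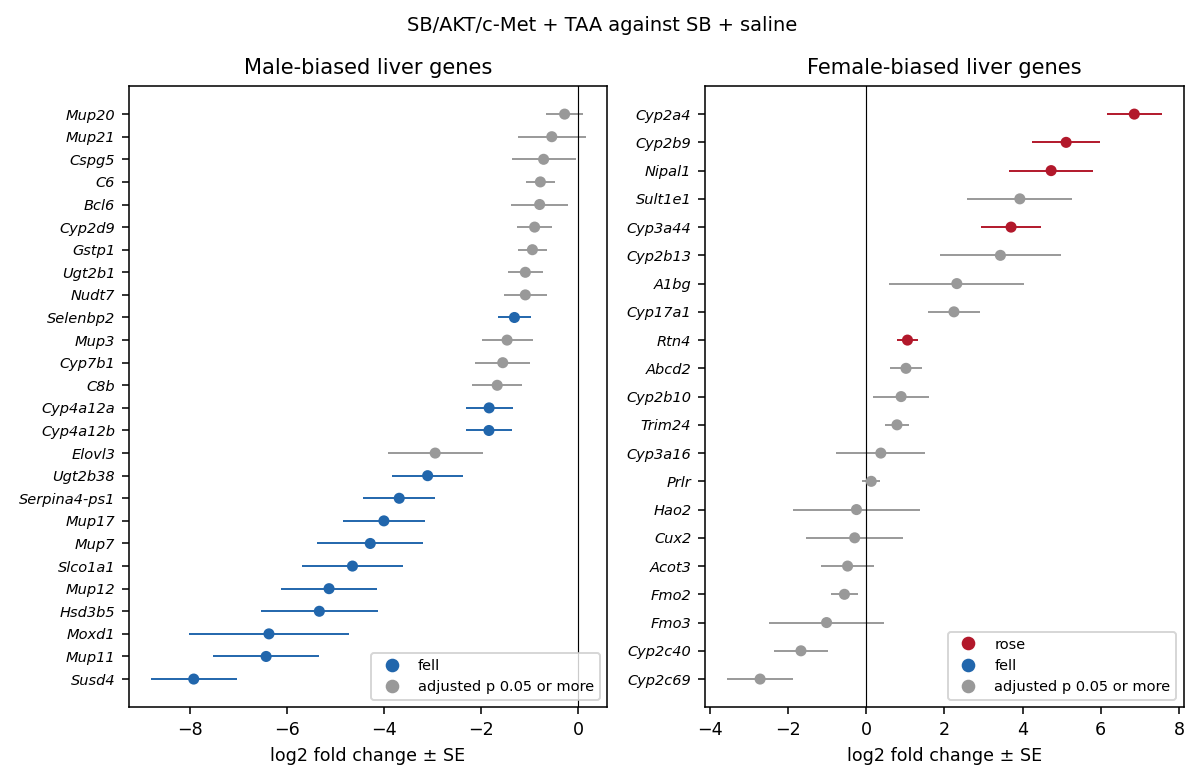
Log2 fold change ± SE (bars) of SB/AKT/c-Met + TAA against SB + saline for 26 male-biased (left panel) and 21 female-biased (right panel) liver genes, sorted by value; blue fell, red rose, grey had an adjusted p of 0.05 or more. Every male-biased gene lies left of 0, while female-biased genes lie on both sides, with Cyp2a4 at 6.86 at the right end.

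Genes of cell division were higher. Of 28 genes of mitosis and cytokinesis, 22 rose, none fell and all 28 had a positive log2 fold change, with a median of 3.10 (3.03 with genes at 0 set to their bound). Together they reached 167, 277, 333 and 259 CPM in the SB/AKT/c-Met + TAA livers, against 30.8, 28.4, 20.05 and 35.1 CPM in the SB + saline livers. The lowest combination liver, replicate 1, was well above the highest SB + saline liver, replicate 4. Single members stayed low in level: Cdc20, which activates the anaphase-promoting complex, had 11.5, 27.4, 35.3 and 18.6 CPM against 1.28, 2.27, 0.802 and 1.71 CPM (3.96 ± 0.60, adjusted p = 0.000162). Nusap1, a spindle protein, had 9.602, 13.4, 17.5 and 12.3 CPM against 0.856, 2.27, 1.203 and 0.428 CPM (3.50 ± 0.51, adjusted p = 0.000133). Cenpf, a kinetochore protein, had 11.5, 23.9, 30.4 and 25.98 CPM against 1.28, 2.27, 0 and 2.997 CPM (3.83 ± 0.57, adjusted p = 0.000156). Prc1 and Tpx2, which bundle and nucleate spindle microtubules, changed by 4.30 ± 0.70 and 3.96 ± 0.64 (adjusted p = 0.000377 for each). Mki67, the widely used proliferation marker, averaged 14.1 ± 1.54 CPM and 1.49 ± 0.7702 CPM (3.14 ± 0.63, adjusted p = 0.00369; 0.0769 under limma-voom).

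The promoters of 4 of these genes are printed because the list moved together and because the promoters of mitotic genes are known to carry a cell cycle homology region, TTTGAA, read by the DREAM and MuvB complexes, and CCAAT boxes bound by NF-Y. The stretches are from RefSeq on GRCm38.p6, 100 bases ending 1 base before the annotated start, minus strand, with TTTGAA and CCAAT on either strand in capitals (TTCAAA and ATTGG are the reverse forms).
Cdk1 (chr10:69352913-69353012): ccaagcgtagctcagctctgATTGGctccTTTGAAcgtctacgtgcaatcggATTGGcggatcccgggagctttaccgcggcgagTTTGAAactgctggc
Cdc20 (chr4:118437344-118437443): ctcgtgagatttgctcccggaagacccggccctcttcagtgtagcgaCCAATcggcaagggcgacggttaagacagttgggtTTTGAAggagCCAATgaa
Top2a (chr11:99024190-99024289): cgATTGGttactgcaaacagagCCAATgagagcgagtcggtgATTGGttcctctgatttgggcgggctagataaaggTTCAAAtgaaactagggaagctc
Cenpf (chr1:189688087-189688186): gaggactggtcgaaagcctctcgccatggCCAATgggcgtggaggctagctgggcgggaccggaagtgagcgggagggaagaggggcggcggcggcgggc
Cdk1, the kinase that drives entry into mitosis, had both motifs more than once here and averaged 9.596 ± 2.98 CPM and 1.58 ± 1.23 CPM (2.51 ± 0.53, adjusted p = 0.00531). Top2a, the topoisomerase that untangles chromosomes, had 19.6, 32.02, 27.3 and 27.03 CPM in SB/AKT/c-Met + TAA, against 3.42, 3.41, 1.203 and 4.71 CPM in SB + saline (3.06 ± 0.53, adjusted p = 0.000789). In the Cenpf stretch only CCAAT was found. Of 24 list genes with a listed promoter, CCAAT stood within 250 bases before the start in 20 (83.3%), against 37.5% of all 27025 genes searched the same way, and TTTGAA in 10 (41.7%), against 18.3%. Neither share was particular to lists that rose. CCAAT stood in 16 of 16 promoters of the cholesterol synthesis list, where 0 of 24 genes rose. TTTGAA stood in 9 of 20 promoters (45%) of UGT and SULT enzymes, where 0 of 23 rose. A match describes letters and not binding.

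Fewer genes of DNA replication passed. Of 26, 6 rose and none fell, with a median of 0.89. Gins2, part of the replicative helicase, had 3.46, 5.63, 8.59 and 5.27 CPM in SB/AKT/c-Met + TAA, against 1.28, 0.568, 0 and 0.428 CPM in SB + saline (3.27 ± 0.58, adjusted p = 0.00108). Mcm6, a helicase subunit, averaged 13.6 ± 4.64 CPM and 2.19 ± 1.72 CPM (2.54 ± 0.57, adjusted p = 0.00841; 0.074 under limma-voom). Its partner Mcm2 did not pass (1.91 ± 0.58, adjusted p = 0.0611), although it did under DESeq2, library size alone, no filter and the 8 livers alone (adjusted p = 0.0225, 0.0205, 9.62e-05 and 0.000107), and the sliding clamp Pcna had overlapping levels, 12.3 ± 3.55 CPM and 12.5 ± 2.66 CPM (-0.03 ± 0.27, adjusted p = 0.983). The number that rose was 3 without SB/AKT/c-Met + TAA replicate 2, 3 without SB + saline replicate 3 and 2 under limma-voom. Side by side against SB + saline, TAA alone raised 19 of these 26 genes and 23 of the 28 mitotic genes (3.48% of all genes), and SB/AKT/c-Met + saline raised 0 of either list (0.599%). In the 3 SB/AKT/c-Met + saline livers the mitotic list still summed to 31.0, 118 and 117 CPM, against 20.05 to 35.1 CPM in SB + saline. Set directly against the oncogenes alone, 1 mitotic gene was higher in the combination (0.134% of all genes).

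**Figure D4:**
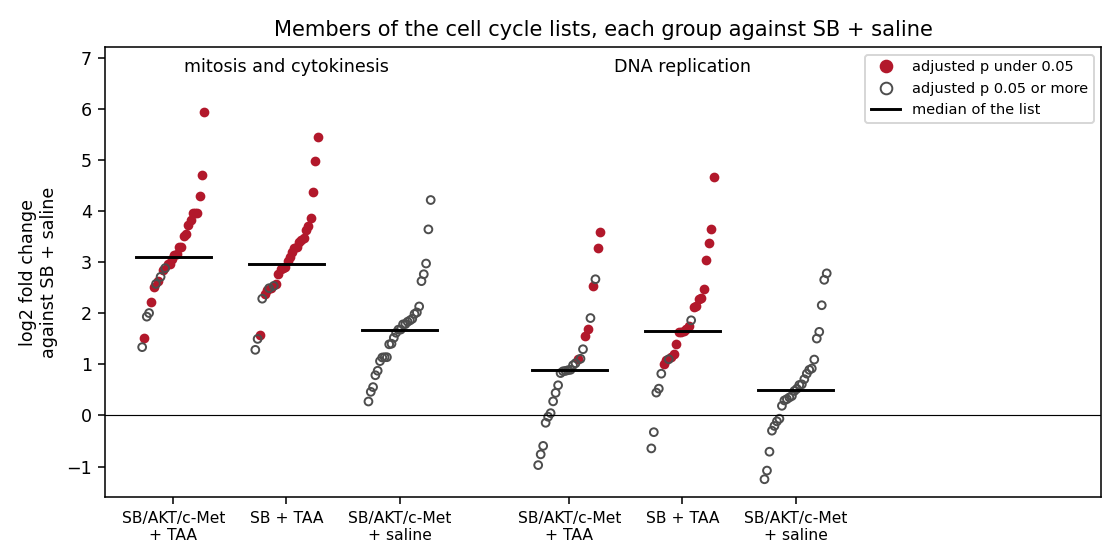
Log2 fold change against the same SB + saline livers for every member of the mitosis (28 genes) and DNA replication (26 genes) lists, in SB/AKT/c-Met + TAA, SB + TAA and SB/AKT/c-Met + saline livers. Each point is a gene, filled where the adjusted p was under 0.05, and the line is the median of the list, 3.10, 2.96 and 1.68 for mitosis and 0.89, 1.65 and 0.50 for replication.

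The targets of p53, which halts the cell cycle after DNA damage, were raised in the same livers. Of 24 p53 targets, 10 rose and none fell (median 0.96). Cdkn1a, the p21 inhibitor of cyclin-dependent kinases, had 58.8, 89.02, 105 and 87.4 CPM in SB/AKT/c-Met + TAA, against 1.71, 10.8, 22.1 and 22.7 CPM in SB + saline (2.55 ± 0.49, adjusted p = 0.00226). Every combination liver was above every SB + saline liver, of which replicate 1 was the lowest. Ccng1 averaged 58.5 ± 7.88 CPM and 21.3 ± 5.72 CPM (1.45 ± 0.25, adjusted p = 0.000623), and Trp53inp1 averaged 61.2 ± 8.51 CPM and 31.7 ± 3.49 CPM (0.94 ± 0.20, adjusted p = 0.00509). The death receptor Tnfrsf10b had 5.76, 7.74, 3.07 and 4.91 CPM, against 1 count in all SB + saline livers, a ratio of 47.1 (8.14 to 1891; adjusted p = 0.00137). Cyclin D1 (Ccnd1), which drives cells out of G1, had 116, 77.8, 105 and 212 CPM against 29.1, 56.3, 40.1 and 27.4 CPM (1.75 ± 0.38, adjusted p = 0.00672). It and Cdkn1a were the 2 risers among 20 G1 genes, and Ccnd1 was the only riser among 19 RAS-MAPK feedback genes, of which 2 rose without SB + saline replicate 1. Areg, a ligand of the EGF receptor, had 1.15, 2.11, 2.15 and 1.76 CPM and no count in SB + saline (at least 5.41-fold, adjusted p = 0.0061). The count of p53 targets was 4 without SB + saline replicate 1.

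NRF2 is the transcription factor of the response to oxidants and electrophiles. Of 42 NRF2 targets and glutathione genes, 16 rose and no more than 1 fell (median 0.89), and this count stayed between 13 and 16 when any 1 of the 8 livers was left out. Slc7a11, the cystine importer that feeds glutathione synthesis, had 51.5, 46.8, 37.1 and 14.04 CPM in the SB/AKT/c-Met + TAA livers, against 0, 0.568, 0.401 and 1.28 CPM in the SB + saline livers (5.95 ± 0.84, adjusted p = 7.58e-05). Replicate 4 was the lowest of the combination, as it was for Cbr3 and Abcc4. Cbr3, a carbonyl reductase, had 49.9, 77.4, 46.3 and 22.8 CPM against 2.14, 3.41, 2.41 and 2.14 CPM (4.29 ± 0.57, adjusted p = 4.08e-05). Abcc4, an exporter of conjugates and bile acids on the sinusoidal side, had 41.5, 53.8, 29.1 and 16.1 CPM against 5.99, 4.55, 0.401 and 2.997 CPM (3.35 ± 0.38, adjusted p = 4.96e-06). The glutathione transferases Gstm3 and Gsta1 averaged 959.7 ± 276 CPM and 182 ± 19.8 CPM, against 73.5 ± 19.6 CPM and 14.5 ± 3.02 CPM in SB + saline (3.71 ± 0.43 and 3.65 ± 0.49, adjusted p = 8.89e-06 and 4.08e-05), but both have close paralogs that could share reads. Nqo1, a quinone reductase, averaged 32.2 ± 9.39 CPM and 9.04 ± 2.44 CPM (1.83 ± 0.34, adjusted p = 0.00161).

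Among the NRF2 targets that rose were 3 enzymes of the pentose phosphate pathway, which makes NADPH. G6pdx, its first enzyme, had 22.7, 25.3, 18.4 and 18.96 CPM in SB/AKT/c-Met + TAA, against 3.85, 1.14, 8.42 and 3.42 CPM in SB + saline (2.27 ± 0.43, adjusted p = 0.00218). Pgd had 81.4, 116, 86.8 and 94.4 CPM against 31.2, 28.99, 28.1 and 26.97 CPM (1.71 ± 0.27, adjusted p = 0.000276), and Tkt had 201, 229.8, 187 and 155 CPM against 91.6, 88.1, 86.2 and 75.3 CPM (1.18 ± 0.17, adjusted p = 0.000133). Of these 3, none overlapped between the groups, against 12.8% of all genes that did not. They were named because they passed the test of the same livers, so this separation is no independent support. Ugdh, which makes the sugar donor of glucuronidation, averaged 367 ± 37.9 CPM and 198 ± 47.4 CPM (0.89 ± 0.23, adjusted p = 0.0244), but its call was lost without SB/AKT/c-Met + TAA replicate 1, 2 or 3 (adjusted p = 0.0529, 0.0667 and 0.07) or SB + saline replicate 2, 3 or 4 (0.0891, 0.0718 and 0.0989). Gclm, the modifier subunit of glutathione synthesis and a classical NRF2 target, did not differ beyond its spread, at 210.4 ± 47.04 CPM and 216 ± 17.6 CPM (-0.04 ± 0.18, adjusted p = 0.951).

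The next 3 promoter stretches are shown because NRF2 acts at the antioxidant response element, TGACNNNGC, and because they belong to members that moved differently. Sites on either strand are in capitals, in the reading direction of the gene, from RefSeq on GRCm38.p6.
Abcc4 (chr14:118706220-118706319, minus strand): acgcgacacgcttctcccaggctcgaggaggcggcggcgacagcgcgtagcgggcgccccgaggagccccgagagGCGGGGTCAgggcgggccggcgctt
Ugdh (chr5:65435950-65436048, minus strand): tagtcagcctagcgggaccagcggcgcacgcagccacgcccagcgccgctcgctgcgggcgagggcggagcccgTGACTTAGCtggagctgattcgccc
Gclm (chr3:122245397-122245496, plus strand): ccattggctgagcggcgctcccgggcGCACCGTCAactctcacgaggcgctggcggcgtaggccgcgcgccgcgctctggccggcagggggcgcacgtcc
The site lay 25 bases before the start of Abcc4, 132 before that of Ugdh and 134 before that of Gclm, counted to the first base of the match in the gene's direction. The motif was present in 7 of 36 list genes with a listed promoter (19.4%), against 11.5% of all genes searched, and it was found both before a gene that rose and before one that did not pass. This share was not particular to the NRF2 list. The motif stood in 6 of 24 promoters (25%) of the mitosis list and 4 of 19 (21.1%) of the bile acid list. Genes under ATF4, the transcription factor of amino acid and endoplasmic reticulum stress, were raised in part, 5 of 25 rising (3 without SB/AKT/c-Met + TAA replicate 4) and none falling. Gdf15, a stress hormone, had 12.3, 24.98, 19.9 and 17.9 CPM in SB/AKT/c-Met + TAA, against 1.28, 2.27, 3.61 and 4.28 CPM in SB + saline (2.68 ± 0.40, adjusted p = 0.000156). Fgf21, a fasting and stress hormone of the liver, had 6.53, 12.3, 11.96 and 29.1 CPM against 1.28, 2.27, 2.41 and 2.14 CPM (2.87 ± 0.62, adjusted p = 0.00672; 0.0562 under limma-voom), and replicate 4 was the highest.

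Perivenous genes fell in part. Of 34, 9 fell and 2 rose (median -0.61), while of 27 periportal genes 1 fell and 1 rose (median -0.19). The periportal list was not unchanged, however. Of its 27 genes 8 had a positive log2 fold change, and 10 did not overlap between the groups (12.8% of all genes did not). It summed to 45342 to 65194 CPM in the combination and 74575 to 95488 CPM in SB + saline. Slc1a2, the glutamate importer of the innermost hepatocytes (ENSMUSG00000005089; GRCm38 chromosome 2, 102658659 to 102790784), had 2.305, 0, 1.23 and 0.702 CPM in the SB/AKT/c-Met + TAA livers, against 206, 92.1, 92.2 and 115 CPM in the SB + saline livers, a 119-fold difference in means (-6.87 ± 0.58). At an adjusted p of 3.42e-08 it was the most significant of all genes. Glutamine synthetase (Glul), of the same cells, had 98.7, 117, 101 and 65.3 CPM against 687, 493, 439 and 318 CPM (-2.34 ± 0.29, adjusted p = 1.82e-05). Oat, ornithine aminotransferase, had 8.83, 134, 50.00 and 48.8 CPM against 735, 539, 248 and 444 CPM (-3.02 ± 0.62, adjusted p = 0.00419), and replicate 2 was the highest of the combination and replicate 1 the lowest. The P450 enzymes Cyp2c37 and Cyp2c29 averaged 20.6 ± 10.4 CPM and 367 ± 121 CPM, against 155 ± 54.9 CPM and 1850.1 ± 364 CPM (-2.91 ± 0.48 and -2.34 ± 0.43, adjusted p = 0.000459 and 0.00169), with close paralogs in the Cyp2c cluster. Cyp2e1, which activates TAA, had 720.2, 698, 979.8 and 392 CPM against 2427, 1947, 1530.2 and 2269 CPM (-1.55 ± 0.37, adjusted p = 0.0141; 0.0549 with robust estimation). Its call was lost without SB/AKT/c-Met + TAA replicate 4 (adjusted p = 0.0641), the lowest liver. The perivenous risers were Gstm3, given above, and Slc1a4, a neutral amino acid transporter, at 9.99, 27.8, 21.8 and 10.5 CPM against 3.42, 1.71, 2.81 and 4.71 CPM (2.43 ± 0.43, adjusted p = 0.00106).

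The periportal riser was Aldh1b1, a mitochondrial aldehyde dehydrogenase, which had 152, 190.0, 171 and 199 CPM in SB/AKT/c-Met + TAA, against 67.2, 49.5, 44.5 and 58.7 CPM in SB + saline (1.70 ± 0.25, adjusted p = 0.000108). The periportal gene that fell was Serpina1e, an alpha-1-antitrypsin paralog, at 1715, 247, 941 and 785 CPM against 10472, 13205, 16829.6 and 19280.3 CPM (-4.02 ± 1.00, adjusted p = 0.0185; 0.0819 with robust estimation). Its call was lost without SB/AKT/c-Met + TAA replicate 2, 3 or 4 (adjusted p = 0.0771, 0.0608 and 0.0635), and its near-identical neighbours make its level uncertain. Slc22a28, of the organic anion transporter family, fell too, at 0, 0.352, 0.9203 and 1.404 CPM against 11.98, 15.3, 14.8 and 18.4 CPM (-4.37 ± 0.93, adjusted p = 0.00559). Over 58 P450 enzymes, 8 rose and 12 fell. Among the risers were the female-biased Cyp2a4, Cyp2b9 and Cyp3a44 and the fatty acid hydroxylase Cyp4a31 (15.3 ± 6.95 CPM against 1.86 ± 0.796 CPM; 2.99 ± 0.55, adjusted p = 0.00154). The count that fell was 7, 6, 6, 6 and 7 without SB/AKT/c-Met + TAA replicate 1, 2 or 4 or SB + saline replicate 1 or 2. The count that rose was 5, 5 and 5 without SB/AKT/c-Met + TAA replicate 2 or SB + saline replicate 3 or 4. Cyp7a1, the rate-limiting enzyme of bile acid synthesis, averaged 105 ± 18.3 CPM and 123 ± 59.8 CPM and did not pass (-0.22 ± 0.39, adjusted p = 0.823). Of 26 bile acid genes only Abcc4 passed upwards and only Slco1a1 downwards, but 7 were positive and 11 did not overlap (12.8% of all genes did not). That list summed to 2568 to 3916 CPM in the combination and 4786 to 6078 CPM in SB + saline. For 48 genes of amino acid breakdown and the urea cycle the sums were 16026 to 18312 CPM and 19808 to 23409 CPM. In that list 7 were positive, 18 did not overlap and 4 fell. Prodh, proline dehydrogenase, was among them, at 50.1 ± 11.8 CPM and 134 ± 23.9 CPM (-1.42 ± 0.33, adjusted p = 0.0114), but not without SB/AKT/c-Met + TAA replicate 2 (adjusted p = 0.057). Without that liver 1 of the amino acid list fell, and 2 fell without SB/AKT/c-Met + TAA replicate 3 or 4 or SB + saline replicate 2, 3 or 4.

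Single genes of lipid droplets changed. Cidec, which enlarges lipid droplets by fusing them, had 12.3, 29.9, 20.6 and 32.6 CPM in SB/AKT/c-Met + TAA, against 2.996, 2.84, 2.005 and 5.57 CPM in SB + saline (2.81 ± 0.48, adjusted p = 0.000702). Cidea, a related droplet protein, had 23.05, 31.7, 21.2 and 53.00 CPM against 1.28, 18.2, 3.61 and 5.57 CPM (2.26 ± 0.51, adjusted p = 0.00909), where SB + saline replicate 2 came nearest to the combination. Fitm1, which helps droplets form from the endoplasmic reticulum, fell, at 31.1, 55.9, 42.03 and 33.3 CPM against 161, 164, 105 and 185 CPM (-1.92 ± 0.39, adjusted p = 0.00392). In the whole list 4 of 16 rose and 1 fell, and 2 rose without SB/AKT/c-Met + TAA replicate 2 or 3 or SB + saline replicate 1, 2 or 3. Of 23 genes of fatty acid and triglyceride synthesis, 3 rose and no more than 1 fell. Scd2, the desaturase of fetal liver and brain, had 36.9, 84.1, 52.5 and 151 CPM against 5.56, 5.12, 5.61 and 4.28 CPM (3.97 ± 0.74, adjusted p = 0.00174; 0.111 under limma-voom), with replicate 4 the highest. Fasn, fatty acid synthase, overlapped between the groups, at 283, 273, 262 and 455 CPM and 363, 273, 257 and 182 CPM (0.24 ± 0.29, adjusted p = 0.72). The count of synthesis genes that rose was 1 without SB/AKT/c-Met + TAA replicate 3 or 4 or SB + saline replicate 2, 3 or 4.

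Cholesterol synthesis showed little change. Of 24 genes, 1 fell (2 without SB/AKT/c-Met + TAA replicate 4), Tm7sf2, a sterol reductase, with 43.02, 26.4, 27.3 and 38.6 CPM in SB/AKT/c-Met + TAA livers and 111, 71.1, 80.6 and 99.3 CPM in SB + saline (-1.42 ± 0.28, adjusted p = 0.00289). Of 32 genes of fatty acid oxidation, 4 rose and none fell (median -0.19), the risers with the smallest adjusted p being Cyp4a31 and the hormone Fgf21, both described above. Only 9 of the 32 had a positive log2 fold change, and 11 did not overlap between the groups (12.8% of all genes did not). The list summed to 5747 to 8398 CPM in the combination and to 8417 to 10158 CPM in SB + saline, lower in every combination liver. The number that rose was 2 without SB/AKT/c-Met + TAA replicate 2 or 3 or any 1 SB + saline liver. Cpt1a, the gate to the mitochondrion, averaged 161 ± 11.7 CPM and 121 ± 35.3 CPM and did not pass (0.41 ± 0.25, adjusted p = 0.431). Apoa4, a lipoprotein that rises with fat load in the mouse liver, had 763, 2253, 2235 and 3221 CPM in SB/AKT/c-Met + TAA, against 181, 194, 209 and 238 CPM in SB + saline (3.37 ± 0.47, adjusted p = 7.09e-05). Apoa1, the main protein of high-density lipoprotein, moved the other way, at 8099, 5107, 9231 and 10183 CPM against 14422, 15333, 17442 and 19209 CPM (-1.03 ± 0.23, adjusted p = 0.00744), although under library size alone its adjusted p was 0.0508.

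Secreted plasma proteins were lower in part. Of 36 coagulation and complement genes, 6 fell, none rose, and 25 did not overlap between the groups (12.8% of all genes did not), with a median of -0.55. That median is relative to the TMM scale, since library size alone moved the median of all genes up by 0.37. The complement protein C8a averaged 232 ± 23.5 CPM and 464 ± 65.2 CPM (-1.001 ± 0.23, adjusted p = 0.0106), and Proc, the anticoagulant protein C, averaged 241 ± 26.02 CPM and 439.7 ± 24.9 CPM (-0.87 ± 0.21, adjusted p = 0.0153; 0.0631 without SB/AKT/c-Met + TAA replicate 2). The number that fell was 1 without SB/AKT/c-Met + TAA replicate 2, 2 or 3 without any of the other livers except SB/AKT/c-Met + TAA replicate 1, and 5 without that one. Of 27 acute phase proteins, 5 fell and 1 rose. The count that fell was 3 without SB/AKT/c-Met + TAA replicate 1 or 2 or SB + saline replicate 3. Saa4 had 140.2, 79.9, 123 and 137 CPM against 331, 209, 293 and 422 CPM (-1.39 ± 0.25, adjusted p = 0.00106), and Crp, C-reactive protein, had 149, 119, 155 and 150.2 CPM against 285, 261, 387 and 299 CPM (-1.10 ± 0.24, adjusted p = 0.00614). Saa1, serum amyloid A, ranged widely, at 439, 63.3, 273 and 817 CPM against 2862, 398, 4655 and 2551 CPM (-2.72 ± 0.61, adjusted p = 0.00903; 0.0519 with robust estimation), and SB + saline replicate 2 lay within the combination's range. Orm2, an orosomucoid, went the other way, at 121, 233, 247 and 283 CPM against 42.8, 11.9, 93.8 and 37.7 CPM (2.23 ± 0.54, adjusted p = 0.0151; 0.0694 with robust estimation), and its call was lost without SB + saline replicate 1, 2 or 4 (adjusted p = 0.0524, 0.0633 and 0.0591). Albumin (Alb) averaged 34679 ± 6395 CPM and 45445 ± 4751 CPM and did not pass (-0.39 ± 0.23, adjusted p = 0.404).

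Macrophage genes were higher. Of 18 markers of monocyte-derived and scar-associated macrophages, 11 rose, none fell and all 18 were positive (median 2.35, or 2.04 with genes at 0 set to their bound). They summed to 1220.3, 1199, 1623 and 1748 CPM in SB/AKT/c-Met + TAA, against 459, 399.6, 553 and 521 CPM in SB + saline, with a wide gap between the groups. The sum is no measure of macrophages alone, since it includes Spp1, which duct cells also make and which did not pass (adjusted p = 0.128). Lgals3, galectin 3, had 163, 131, 142 and 90.2 CPM against 6.42, 5.12, 9.22 and 10.7 CPM (4.04 ± 0.57, adjusted p = 7.58e-05). Cd63, a lysosomal tetraspanin, had 212, 206, 258 and 209 CPM against 9.42, 10.2, 20.5 and 20.5 CPM (3.85 ± 0.53, adjusted p = 6.14e-05), and Cd9, another tetraspanin, had 74.5, 74.6, 74.2 and 56.2 CPM against 10.7, 15.9, 21.3 and 12.8 CPM (2.20 ± 0.35, adjusted p = 0.000301). Both are also made by other cells of the liver. Markers closer to macrophages alone were lower in level: Gpnmb had 8.07, 4.22, 8.896 and 5.97 CPM, against 2 counts in all SB + saline livers (ratio 30.5, 8.17 to 256; adjusted p = 0.00177), and Cx3cr1, the fractalkine receptor, had 9.99, 6.69, 10.7 and 12.3 CPM against 0.428, 2.84, 0.802 and 1.28 CPM (2.95 ± 0.57, adjusted p = 0.00269). Trem2 had 5.76, 7.04, 16.6 and 4.21 CPM against 0.428, 1.14, 0.802 and 1.71 CPM (3.02 ± 0.71, adjusted p = 0.0125; 0.0854 under limma-voom), with its call lost without SB/AKT/c-Met + TAA replicate 3, its highest liver (adjusted p = 0.0779), or SB + saline replicate 1 (0.0544).

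Kupffer cells are the resident macrophages of the liver. Of 15 of their markers 1 rose (2 without SB/AKT/c-Met + TAA replicate 1), Adgre1 (F4/80), which all macrophages share, at 14.1 ± 4.11 CPM and 5.16 ± 1.35 CPM (1.45 ± 0.34, adjusted p = 0.0114; 0.0577 without SB/AKT/c-Met + TAA replicate 2). Clec4f, which only Kupffer cells express in the mouse, had 45.7, 78.5, 76.4 and 54.4 CPM in the combination and 34.7, 38.7, 85.01 and 70.2 CPM in SB + saline, with full overlap (0.15 ± 0.29, adjusted p = 0.839). MHC class II genes, which present antigen on macrophages, dendritic cells and B cells, rose in 5 of 10 cases (median 1.30), and the list summed to 321, 301, 456 and 384 CPM against 114, 122, 151 and 143 CPM. H2-Aa had 71.1, 57.00, 95.1 and 76.9 CPM against 19.3, 27.9, 22.1 and 19.7 CPM (1.76 ± 0.40, adjusted p = 0.00953), H2-Eb1 averaged 43.8 ± 6.197 CPM and 13.5 ± 2.25 CPM (1.68 ± 0.35, adjusted p = 0.00509), and the protease Ctss averaged 101 ± 21.04 CPM and 44.1 ± 11.5 CPM (1.20 ± 0.27, adjusted p = 0.00839). Cd74, their invariant chain, changed by 1.46 ± 0.34 (adjusted p = 0.0127; 0.0527 without SB + saline replicate 1). Of 29 chemokines and adhesion molecules 3 rose, among them Ccl5, which draws T cells, at 14.2, 14.8, 17.2 and 7.72 CPM against 1.28, 5.12, 4.01 and 0.856 CPM (2.30 ± 0.49, adjusted p = 0.00637). Of 29 interferon-stimulated genes, Usp18 (17.04 ± 8.47 CPM against 4.48 ± 1.11 CPM; 1.90 ± 0.34, adjusted p = 0.00102) and Isg15 (20.7 ± 5.75 CPM against 8.97 ± 3.04 CPM; 1.19 ± 0.24, adjusted p = 0.00435) rose, and 4 rose without SB/AKT/c-Met + TAA replicate 1.

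Some genes of the scar and few of the other cell types passed. Of 44 extracellular matrix genes, 5 rose (11.4%, against 2.68% of all genes) and none fell (median 0.85). A positive log2 fold change was found in 41 of the 44, and 16 did not overlap between the groups (12.8% of all genes did not). The list summed to 1360 to 1675 CPM in the combination and 1165 to 1252 CPM in SB + saline. Loxl2, a collagen cross-linking enzyme, had 13.4, 17.9, 11.96 and 17.9 CPM in SB/AKT/c-Met + TAA, against 2.57, 1.71, 0 and 1.28 CPM in SB + saline (3.46 ± 0.69, adjusted p = 0.00319; 0.0631 under limma-voom), and the macrophage elastase Mmp12 averaged 8.56 ± 2.55 CPM and 0.456 ± 0.0758 CPM (4.13 ± 0.90, adjusted p = 0.00713; 0.0658 under limma-voom). The fibrillar collagens Col1a1 and Col3a1 did not pass, although the groups did not overlap. Col1a1 had 22.7, 11.6, 19.3 and 43.9 CPM against 5.56, 5.68, 6.42 and 3.85 CPM (2.17 ± 0.72, adjusted p = 0.0937), and Col3a1 had 67.6, 26.4, 64.7 and 107 CPM against 24.4, 14.8, 20.05 and 17.98 CPM (1.77 ± 0.56, adjusted p = 0.0736), each with SB/AKT/c-Met + TAA replicate 2 nearest to SB + saline. Both passed under library size alone (adjusted p = 0.0333 and 0.0242), without a filter (1.71e-06 and 7.5e-07) and with only the 8 livers in the model (9.37e-07 and 5.77e-07), and Col1a1 also under DESeq2 (0.0491). The count of matrix genes that rose was 3 without SB/AKT/c-Met + TAA replicate 3, 2 without SB + saline replicate 1, 3 without SB + saline replicate 3 and 1 under limma-voom. None of 18 stellate cell and myofibroblast markers passed, and their sum was 268 to 314 CPM in the combination and 198 to 272 CPM in SB + saline. Acta2, smooth muscle actin, averaged 3.79 ± 2.98 CPM and 3.002 ± 2.91 CPM (0.36 ± 0.83, adjusted p = 0.881). At most 1 of 16 bile duct markers passed. The sum of that list was 213, 132, 292 and 695 CPM and 77.5, 115, 122 and 84.8 CPM, with replicate 4 of the combination far above the rest. Spp1, osteopontin, made by duct cells and macrophages, had 142, 71.4, 215 and 583 CPM against 45.4, 43.8, 50.1 and 40.2 CPM and did not pass (2.49 ± 0.90, adjusted p = 0.128; 0.0496 under library size alone, 7.05e-07 without a filter and 6.83e-08 with only the 8 livers), and the keratin Krt19 averaged 1.99 ± 1.07 CPM and 1.57 ± 1.05 CPM (0.26 ± 1.18, adjusted p = 0.951). None of 12 neutrophil markers passed, and no more than 1 each of 19 T and NK cell, 11 B and plasma cell and 19 sinusoidal endothelium markers did. Cfd, complement factor D, which adipocytes make, had 1 count in the combination and 2.996, 39.2, 0.401 and 4.71 CPM in SB + saline. Its fall (adjusted p = 0.0129; 0.0849 with robust estimation) rested on SB + saline replicate 2 and was lost without it (adjusted p = 0.101).

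Some calcium-binding and cytoskeletal proteins rose. Of 21 S100 and annexin genes, 6 rose and no more than 1 fell (median 0.98). Besides S100g, S100a11 had 113, 123, 144 and 130.2 CPM in SB/AKT/c-Met + TAA, against 12.8, 8.53, 7.22 and 6.42 CPM in SB + saline (3.86 ± 0.53, adjusted p = 5.26e-05). Anxa2, which binds membranes and S100 proteins, had 138, 185, 264 and 262 CPM against 27.4, 26.7, 18.8 and 17.98 CPM (3.23 ± 0.59, adjusted p = 0.00135), and Anxa5 averaged 296 ± 67.5 CPM and 73.1 ± 7.43 CPM (2.01 ± 0.38, adjusted p = 0.00218). Of 12 tubulins, 6 rose and none fell. Tubb2a had 187, 532, 484 and 464 CPM against 27.4, 98.9, 170.4 and 156 CPM (1.88 ± 0.41, adjusted p = 0.00736), where the lowest combination liver, replicate 1, was close to the 2 highest of SB + saline. Tuba8 had 18.1, 19.4, 18.4 and 12.6 CPM against 0.856, 1.14, 2.005 and 2.14 CPM (3.42 ± 0.58, adjusted p = 0.00064). Tubb2b, usually a neuronal isotype, had 2.69, 7.39, 6.44 and 4.21 CPM, against 1 count in all SB + saline livers (ratio 47.1, 8.14 to 1891; adjusted p = 0.00446). Nt5e (CD73), which makes adenosine outside the cell, had 28.04, 41.5, 33.7 and 16.1 CPM against 4.28, 0.568, 5.21 and 4.28 CPM (2.98 ± 0.45, adjusted p = 0.000156). The transferrin receptor Tfrc averaged 26.3 ± 4.35 CPM and 10.1 ± 1.58 CPM (1.37 ± 0.26, adjusted p = 0.00202), and hemojuvelin (Hfe2), an inducer of hepcidin, averaged 48.8 ± 9.19 CPM and 24.5 ± 2.73 CPM (0.99 ± 0.21, adjusted p = 0.00691).

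In some other lists few or no members passed. None of 18 FOXO1 and insulin-regulated genes, 35 respiratory chain genes, 34 cytosolic ribosomal protein genes, 7 mesothelial markers or 10 pancreatic markers passed. Of 35 respiratory chain genes, 1 had a positive log2 fold change and 13 did not overlap between the groups, a larger share than over all genes (12.8%; median -0.25), against 26 positive of 34 ribosomal protein genes (median 0.13). Under library size alone the medians of the same lists were 0.12 and 0.50. No more than 1 of 21 liver-enriched transcription factors and 1 of 19 clock genes passed. Of 34 genes of glycolysis and gluconeogenesis 4 rose, 3 of them the pentose phosphate enzymes above, and 1 fell. Of 12 EGF receptor ligands and receptors 2 rose, but 1 without SB/AKT/c-Met + TAA replicate 1, 2 or 3 or SB + saline replicate 1, 3 or 4. Of 23 UGT and SULT enzymes 2 fell, but 0 without SB/AKT/c-Met + TAA replicate 2 or 3 and 1 without replicate 4 or any 1 SB + saline liver. Hnf4a, a main regulator of hepatocyte genes, averaged 144 ± 38.4 CPM and 178 ± 19.96 CPM (-0.31 ± 0.22, adjusted p = 0.508).

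The combination was also set directly against each single treatment, in the same model. Over all genes tested, 0.268% were higher and 0.134% lower in the combination than with TAA alone, and 0.134% higher and 0.103% lower than with the oncogenes alone. S100g averaged 23.3 ± 5.75 CPM in SB/AKT/c-Met + TAA, 0.8899 ± 1.08 CPM in SB + TAA (n = 4) and 1.202 ± 1.04 CPM in SB/AKT/c-Met + saline livers (n = 3). The combination was above TAA alone by 4.56 ± 0.56 (adjusted p = 7.69e-05) and above the oncogenes alone by 4.15 ± 0.62 (adjusted p = 0.000661). Abcc4 was above TAA alone by 2.06 ± 0.32 (adjusted p = 0.000981) and above the oncogenes alone by 2.99 ± 0.40 (adjusted p = 0.000105). For Gpc3 the differences were 2.97 ± 0.57 (adjusted p = 0.00839) and 5.06 ± 0.80 (adjusted p = 0.00115), and for Bglap3 4.46 ± 0.73 (adjusted p = 0.00177) and 5.78 ± 1.01 (adjusted p = 0.00559). S100g and Abcc4 passed against both single treatments in every setting run. For these comparisons no setting left out an SB/AKT/c-Met + saline liver, or an SB + TAA liver other than replicate 4. The calls of Gpc3 were lost under limma-voom (adjusted p = 0.128 against TAA alone and 0.168 against the oncogenes alone) and, against TAA alone, with robust estimation (0.11). The call of Bglap3 against the oncogenes alone was lost with robust estimation (adjusted p = 0.0559). Nt5e was above TAA alone by 3.47 ± 0.45 (adjusted p = 0.000119), and its difference from the oncogenes alone, 2.15 ± 0.45 (adjusted p = 0.0313), was lost without SB/AKT/c-Met + TAA replicate 2 or 3 (adjusted p = 0.101 and 0.0927), under limma-voom (0.0675) and with robust estimation (0.0838).

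For other genes the difference from each single treatment was not alike. Cyp2a4 averaged 419 ± 145 CPM in the combination, 24.6 ± 17.7 CPM in SB + TAA and 97.4 ± 95.7 CPM in SB/AKT/c-Met + saline livers, and was above TAA alone by 4.07 ± 0.57 (adjusted p = 0.000271). Its difference from the oncogenes alone was 2.10 ± 0.57 (adjusted p = 0.137). Cyp2b9, Cbr3 and Tkt were also above TAA alone, by 6.398 ± 0.93, 2.70 ± 0.47 and 1.06 ± 0.17 (adjusted p = 0.000494, 0.00329 and 0.00162; Cbr3 0.0516 with robust estimation). Slc7a11 was above the oncogenes alone by 6.43 ± 0.97 (adjusted p = 0.000661; 0.0754 under limma-voom) and Aldh1b1 by 2.28 ± 0.28 (adjusted p = 3.65e-05), while their differences from TAA alone were 1.40 ± 0.50 and 0.03 ± 0.23 (adjusted p = 0.329 and 0.998). Slc1a2, Susd4 and Glul were below the oncogenes alone, with differences of -6.13 ± 0.59, -6.78 ± 0.99 and -2.44 ± 0.31 (adjusted p = 8.93e-07, 0.000661 and 4.94e-05). Glul was above TAA alone by 1.32 ± 0.29 (adjusted p = 0.0324), which was lost without SB/AKT/c-Met + TAA replicate 1, 2 or 3 (adjusted p = 0.0786, 0.179 and 0.103) or SB + TAA replicate 4 (0.17), under limma-voom (0.164) and with robust estimation (0.115). The droplet gene Cidea stood between the single treatments. It averaged 32.2 ± 14.6 CPM in the combination, 2.86 ± 0.563 CPM in SB + TAA and 482 ± 175 CPM in SB/AKT/c-Met + saline livers, above TAA alone by 3.46 ± 0.54 (adjusted p = 0.00109; 0.0707 under limma-voom) and below the oncogenes alone with a difference of -3.90 ± 0.46 (adjusted p = 2.19e-05). The calls for Cyp2a4, Cyp2b9, Cidea, Abcc4 and S100g against TAA alone held without SB + TAA replicate 4, the liver with muscle RNA (adjusted p = 6.98e-05, 0.00219, 0.00477, 0.00219 and 1.28e-05). Without that liver the differences from TAA alone were 4.71, 8.597 and 5.91 for Cyp2a4, Cyp2b9 and S100g, more than 1.5 times further from TAA alone on the linear scale.

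**Figure D5:**
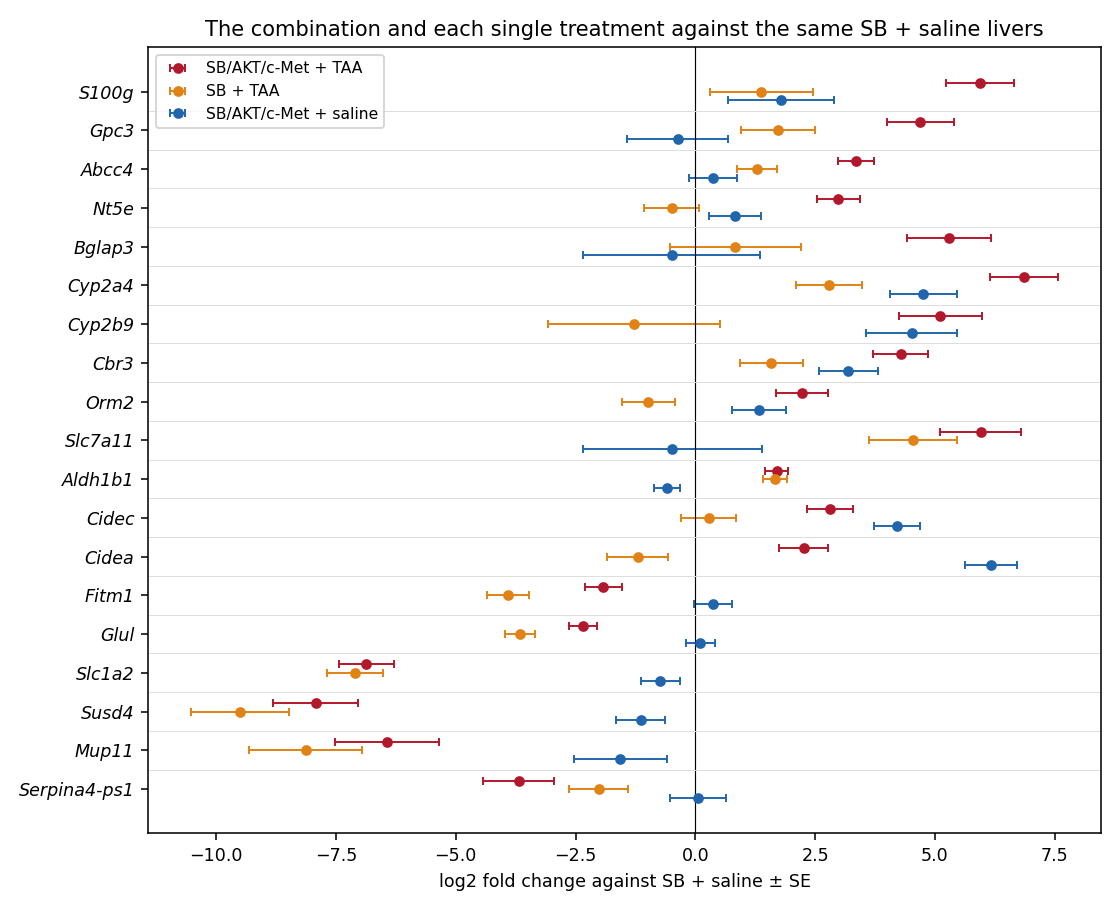
Log2 fold change ± SE against the same 4 SB + saline livers for 19 genes in SB/AKT/c-Met + TAA (red, n = 4), SB + TAA (orange, n = 4) and SB/AKT/c-Met + saline (blue, n = 3) livers. S100g lies at 5.94 in the combination, with the single treatments at 1.38 ± 1.07 and 1.79 ± 1.10, while for Slc1a2 the combination (-6.87) and TAA alone (-7.10 ± 0.58) lie together.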

How the data were processed

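Liver RNA was sequenced from the 3′ end with unique molecular identifiers (UMIs), 1 library per mouse. Libraries were split by index with Sabre and the authors' RNAsik pipeline ran STAR against GRCm38, with human NRAS and MET appended, and removed UMI duplicates. The deposited values are raw counts per gene that the authors made with featureCounts 1.6.4 on the forward strand at a mapping quality of at least 10, so reads placed at several near-identical genes were not counted. A second deposited count table with gene symbols held the same values in all 1283208 cells, and the deposited summary gave counts of assigned and unassigned alignment records.

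Groups were taken from the sample titles. Genes were kept where 2 or more of the 24 libraries reached 0.5 CPM (19381 of 53467, of which 25698 had no count). A single model of 6 groups was fitted to all 24 livers with TMM scaling and edgeR 4.0.16 (glmQLFit and glmQLFTest, R 4.3.3), so the spread was shared between groups, and p-values were adjusted (Benjamini-Hochberg) over every gene that was kept. A gene was called at an adjusted p under 0.05 and an absolute log2 fold change over 1. Members of lists rose or fell at an adjusted p under 0.05 alone. CPM were on the TMM-scaled library size, and means carry SD over the livers of a group. A gene without a count in a group was compared with a floor of 3 counts over that group. Ratios of pooled counts carry exact 95% intervals.

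The gene lists and named genes were chosen with earlier results of these data known. Named were the transgenes and their mouse forms, the 15 genes with the largest increase and the 15 with the largest decrease among called genes that did not overlap and averaged at least 5 CPM in the higher group, and up to 5 members of each list with the smallest adjusted p or for which a list is known although they did not pass. Top2a, Cdk1, Mki67, Cyp2c29, Cyp2e1, Nqo1, Ugdh and Trem2 lie outside this rule and were chosen after their values were seen. Promoters came from RefSeq, 27025 genes with 250 bases before the start, searched on both strands.

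The alternatives were limma-voom (limma 3.58.1), DESeq2 1.42.0, other scalings and filters, the 8 livers alone, robust estimation, no fold threshold and the replicate number as a block. Each of the 8 livers compared, and SB + TAA replicate 4, was also left out in turn. No other liver was left out singly. The test was also run on simulated data. No 2 libraries of the groups compared were duplicates. Figures were drawn with matplotlib 3.10.9 in Python 3.11.15.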

Additional observations from a re-analysis of the deposited data

Results flagged for a closer look

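In each group of 4 livers the gap between the highest or lowest liver and its nearest neighbour was divided by the group's whole range, for each gene named above and for library measures. Of 272 such values, 27 (9.93%) were over Dixon's 95% critical value for 4 livers, 11 of them in SB/AKT/c-Met + TAA livers and 16 in SB + saline livers. Chance flags about 1 in 20 groups. In 10 of the 27 the other 3 livers were all at 0, so that the ratio was 1.000 from very few counts: H19 and Tinag (SB + saline replicate 3, 0.401 CPM each), Csn3 (replicate 1, 0.428 CPM), Tnfrsf10b and Nipal1 (replicate 4, 0.428 CPM each), Tubb2b (replicate 2, 0.568 CPM) and Gpnmb (replicate 3, 0.802 CPM) in SB + saline, and Susd4 (replicate 3, 0.307 CPM), Cfd (replicate 4, 0.351 CPM) and Moxd1 (replicate 2, 0.352 CPM) in SB/AKT/c-Met + TAA livers.

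In the SB/AKT/c-Met + TAA livers, replicate 4 was the lowest for Gpc3 (0.986, 47.0 CPM) and Cd9 (0.981, 56.2 CPM) and the highest for Fasn (0.890, 455 CPM). Replicate 3 was the highest for Cd63 (0.889, 258 CPM), Ctss (0.879, 133 CPM) and Hsd3b5 (0.854, 9.82 CPM). Replicate 2 was the highest for Mup11 (0.858, 458 CPM) and the lowest for Crp (0.833, 119 CPM). None of these livers left its group's side of the comparison for Gpc3, Cd9, Cd63, Ctss, Hsd3b5, Mup11 or Crp, while Fasn overlapped between the groups.

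In the SB + saline livers, replicate 2 stood apart as the lowest for Mup7 (0.966, 193 CPM) and Krt19 (0.937, 0 CPM) and as the highest for Bglap3 (0.963, 1.14 CPM), Cfd (0.889, 39.2 CPM) and Mmp12 (0.838, 0.568 CPM). Replicate 1 was the highest for Cyp2a4 (0.897, 8.13 CPM) and Cyp2c37 (0.831, 237 CPM), and replicate 3 the lowest for Gclm (0.908, 190 CPM). The TMM factor of SB + saline replicate 4 was the lowest of its group (0.948, a factor of 0.772).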

How the results depend on the processing

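Against 583 calls (448 higher, 135 lower), limma-voom gave 530, DESeq2 676, RLE scaling 575 and filterByExpr 603, and no call changed sign in any setting run. Library size alone gave 1190 (1105 higher, 85 lower), no filter 895 (237 lower), only the 8 livers compared 990 (740 higher, 250 lower), robust estimation 88 lower, and no fold threshold 208 lower. The cause of these shifts was not tested, except that library size alone shifted the median of all genes. Without SB + TAA replicate 4 in the model there were 629 calls (155 lower). Leaving out 1 liver of either group gave 388 to 576 calls, 306 to 442 higher and 81 to 134 lower. Of 146 results for single genes that passed, 101 passed in every setting run. Livers of the same replicate number did not deviate together (mean r = 0.038 over 4 pairs, 0.012 to 0.083, against -0.013 for different numbers), and with the replicate number as a block there were 556 calls. Among lists, the P450 genes that fell were 30 with only the 8 livers compared and 6 with robust estimation, against 12, perivenous genes that fell were 14 and 6, against 9, and coagulation and complement genes that fell were 21 and 5, against 6, and 12 under DESeq2.

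Depth and group size limit what could be seen. In simulated counts for the comparison of SB/AKT/c-Met + TAA with SB + saline, on 19381 genes, 4-fold changes were recovered for 55 of 100 genes and for 43 of 45 with at least 5 CPM in SB + saline, and 2-fold changes for 16 of 100 and 16 of 43. A total of 3 unchanged genes passed. Recovered and unchanged genes were counted here at an adjusted p under 0.05 alone, without the fold threshold that a call also needs. DESeq2 gave no adjusted p for 5340 genes. At a depth of 2152510 to 3244732 counts, a floor of 3 counts is 0.920 to 1.71 CPM per liver, so genes under that level are not resolved. Whole tissue holds tumor and other liver together.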
